A study of Mus musculus with 2 samples.

Results

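The 10 genes described here are Gata4, Gata6, Lhcgr, Fshr, Amhr2, Wt1, Foxl2, Inha, Inhba and Inhbb, which are best known from the ovary and testis and were measured here in the adrenal gland. They were chosen by symbol and are 10 of the 55536 genes of the deposited gene tables. The glands came from adult female 5xFAD/CAST mice of 8 to 10 months of age, the offspring of a cross of 5xFAD, a transgenic Alzheimer's disease model, with the wild-derived CAST strain. In 5xFAD mice the transgenes are driven by the neuronal Thy1 promoter, and the labels give the cross but not whether each mouse inherited them. There is 1 group with 2 biological replicates, named mouse 2 and mouse 1 by replicate number, and no second group was analysed. Both labels carry the same donor identifier, so only the replicate numbers mark them as separate animals. Any p-value sets the difference between these libraries against counting error alone, and that difference may be technical. It measures no spread between animals. Total RNA was sequenced from 300 ng per library with a directional kit, after reduction of ribosomal RNA.

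The adrenal cortex and the gonads arise from a shared patch of embryonic tissue, and the cortex keeps part of the same regulatory equipment. GATA4 and GATA6 are zinc-finger transcription factors that act with the nuclear receptor NR5A1 on steroidogenic genes. In the mouse, Gata6 is the main GATA factor of the adult cortex, while Gata4, luteinising hormone receptor and other gonadal genes appear there after gonadectomy in susceptible strains. Inhibins are dimers of an alpha subunit with a beta subunit, activins are dimers of beta subunits, and both are ligands of the TGF-beta family that oppose each other at activin receptors.

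Genes took 32192201 expected counts in mouse 2 and 36558609 in mouse 1. Levels are given as TPM (a share of all transcripts in the library, corrected for transcript length), as the mean ± SD of both mice (n = 2 throughout). All 6 adrenal cortex markers and all 4 adrenal medulla markers were at 1 TPM or more in both mice, with Star, which moves cholesterol into mitochondria, at 5742 TPM in mouse 2, against 5127 TPM in mouse 1. Nuclear protein-coding genes held 32.3% of all TPM in mouse 2 and 29.5% in mouse 1, so the TPM values below are low on a scale of messenger RNA alone. In bulk tissue, fewer cells of a type and less RNA per cell cannot be told apart.

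Gata6 stood far above the other 9 genes, followed by the inhibin alpha subunit gene Inha and the beta B subunit gene Inhbb. These 3 of the 10 genes were at 1 TPM or more in both mice, as were 13136 of the 55536 genes. Among the 22015 nuclear protein-coding genes, which include all 10, it was 11913. Wt1, Gata4, Amhr2, Foxl2 and Inhba lay between 0.32 and 0.91 TPM in every library. Lhcgr was near the limit of detection, and no count was assigned to Fshr. By mean level the order was Gata6, Inha, Inhbb, then Wt1, then Gata4 and Amhr2 with the same mean, then Foxl2, Inhba, Lhcgr and Fshr. From Wt1 to Inhba the ranges of neighbours over the mice overlapped, so their order is not resolved, whereas the ranges of the neighbours above them did not overlap. Lhcgr in mouse 2 and Fshr in both mice lay below the limit of 3 counts, so their order is not resolved either.

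**Figure D1:**
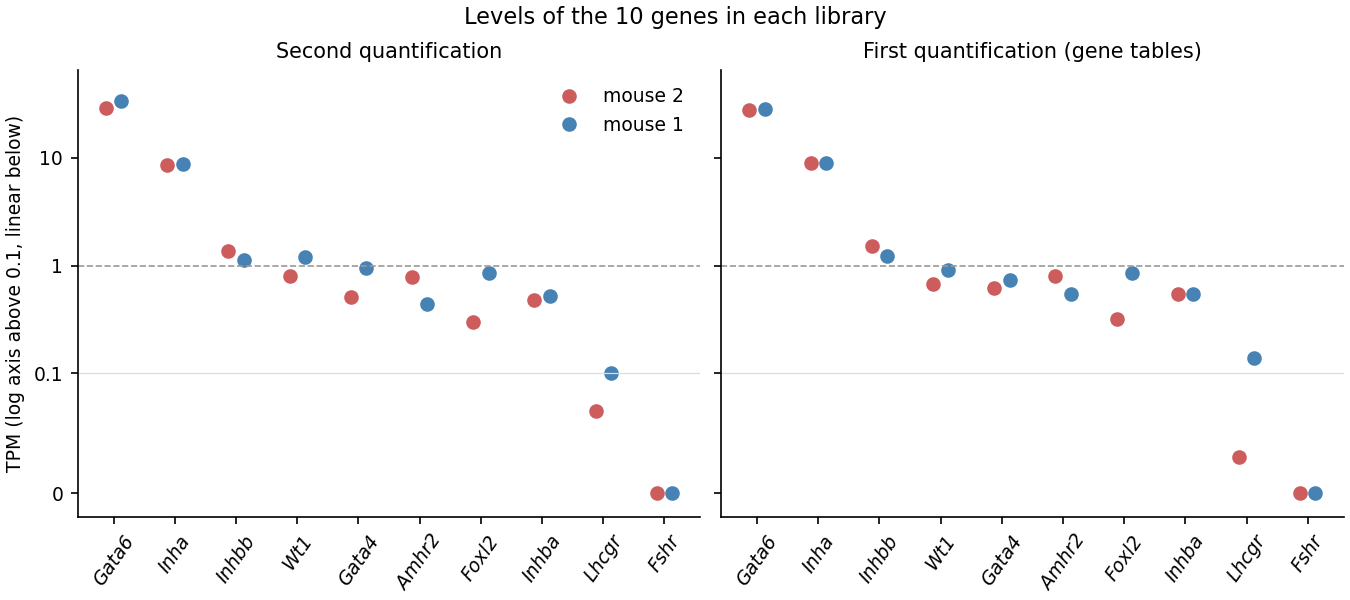
Level of each of the 10 genes in TPM (log axis above 0.1 TPM, linear below) in mouse 2 and mouse 1, with the second deposited quantification on the left and the gene tables on the right. The dashed line marks 1 TPM. In both panels Gata6, Inha and Inhbb lie above the line in both mice, and Fshr is at 0.

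The genes differ at the sequence level most visibly in Wt1, a zinc-finger transcription factor needed for the formation of the adrenal glands, gonads and kidneys. Its transcripts use alternative splice sites that add or omit 9 bases between the last zinc fingers, known as the +KTS and -KTS forms, and the form without these bases is the one with stronger DNA binding. Both forms were quantified here, and they are shown because the deposited tables divide the gene between them. The 9 bases lie at chr2:105170010-105170018 (mm10, + strand), within the coding sequence, and are in capitals, with 20 bases on each side from the GENCODE M21 transcripts.
Wt1-205: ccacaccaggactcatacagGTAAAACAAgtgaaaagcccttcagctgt
Wt1-202: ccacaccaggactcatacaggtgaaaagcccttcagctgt

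A further alternative exon of Wt1, of 51 bases, lies upstream of the zinc fingers at chr2:105144142-105144192 (mm10, + strand). It is present in Wt1-202, Wt1-205 and Wt1-209 and is shown whole because the transcripts listed below differ by it.
Wt1 alternative exon: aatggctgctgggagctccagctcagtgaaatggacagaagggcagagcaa

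Gata6 (chromosome 18, 11052064 to 11085635, + strand, mm10) had 27.8 TPM in mouse 2, from 2509 counts, and 28.6 TPM in mouse 1, from 2904 counts. The mean of 28.2 ± 0.587 TPM was higher than that of 89.6% of the 22015 nuclear protein-coding genes. Scaled for library size, the log2 ratio of mouse 2 over mouse 1 was -0.08, with a 95% counting interval from -0.15 to 0.00, so both mice held nearly the same level. These intervals cover counting error only, since PCR copies were not marked by molecular identifiers.

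Gata4 (chromosome 14, 63198922 to 63271692, - strand) had 0.62 TPM in mouse 2, from 64 counts, and 0.73 TPM in mouse 1, from 89 counts. Both libraries thus held it above the limit of 3 counts, which is 0.0291 TPM in mouse 2 and 0.0246 TPM in mouse 1, and far below Gata6. The ratio of Gata6 to Gata4 in TPM was 44.8 in mouse 2 and 39.2 in mouse 1, with a mean of 42.0 ± 3.97. The log2 ratio of mouse 2 over mouse 1 for Gata4 was -0.33, with an interval from -0.83 to 0.14 that includes no difference.

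Within the GATA family, Gata6 held 55.8% of the summed TPM in mouse 2 and 57.0% in mouse 1, and Gata4 held 1.25% in mouse 2 and 1.45% in mouse 1. Gata2 and Gata3, known from blood and sympathoadrenal cells, held most of the rest. Gata2 had 13.0 TPM in mouse 2 and 14.4 TPM in mouse 1, and Gata3 had 8.31 TPM in mouse 2 and 6.39 TPM in mouse 1. Gata1 and Gata5 were at 0.03 TPM or less. The FOG cofactors, which bind GATA factors and modify their activity, were both present: Zfpm1 had 6.07 TPM in mouse 2 and 6.01 TPM in mouse 1, and Zfpm2 had 3.15 TPM in mouse 2 and 2.88 TPM in mouse 1. Of the 6 genes in this list of other GATA factors and cofactors, 4 were at 1 TPM or more in both mice, and none of the 4 that reached the count minimum differed between the mice beyond counting noise at an adjusted p of 0.05 (exact binomial test of the counts, two-sided, with Benjamini-Hochberg adjustment over the 17666 genes averaging 10 counts or more). Over all genes tested 21.3% passed, so a count of 0 in 4 says little about this list.

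Lhcgr, the luteinising hormone receptor (chromosome 17, 88716481 to 88791990, - strand), had 1 count in mouse 2 and 6 counts in mouse 1. Exact Poisson intervals ran from 0.0253 to 5.57 counts in mouse 2 and from 2.20 to 13.1 counts in mouse 1, which overlap. In TPM this was 0.03 in mouse 2 and 0.14 in mouse 1. The second quantification of the library placed 19.4 counts on Lhcgr in mouse 2 and 34.1 counts in mouse 1, with nearly all of them on the full-length coding transcript Lhcgr-201. The gene tables put 0 counts on Lhcgr-201 in mouse 2 and 2.18 in mouse 1. Their 1 count in mouse 2 lay on the processed transcript Lhcgr-204. In mouse 1 the retained-intron transcript Lhcgr-202 held 89.5% of Lhcgr TPM, from 2.79 counts. The amount of Lhcgr therefore depends on the quantification, although both left it at 0.14 TPM or less.

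Fshr, the follicle-stimulating hormone receptor (chromosome 17, 88984952 to 89200675, - strand), had 0 counts in mouse 2 and 0 counts in mouse 1, in both quantifications. A count of 0 allows up to 0.0404 TPM in mouse 2 and 0.0326 TPM in mouse 1, taking 3 counts as the limit, so Fshr was not detectable at this depth. The pituitary hormone subunits Lhb, Fshb and Cga, the ligands of these receptors, were also at 0 counts in both libraries.

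Other leucine-rich repeat receptors related to Lhcgr and Fshr were present. Lgr4, an R-spondin receptor, had 53.1 TPM in mouse 2 and 51.1 TPM in mouse 1. Lgr5, another R-spondin receptor, had 9.30 TPM in mouse 2 and 8.04 TPM in mouse 1. Tshr, the thyrotropin receptor, had 1.18 TPM in mouse 2 and 0.86 TPM in mouse 1. Lgr6 had 1.09 TPM in mouse 2 and 0.48 TPM in mouse 1, from 226 counts in mouse 2 and 129 counts in mouse 1, with a log2 ratio of 0.93, and was the one of 4 tested relatives that passed the test for more than counting noise, a share near the 21.3% of all genes tested. Of these 6 relatives, which also include Rxfp1 and Rxfp2, 2 were at 1 TPM or more in both mice, against 2 gonadotropin receptors that were not.

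Amhr2, the type II receptor of anti-Müllerian hormone (chromosome 15, 102445367 to 102454633, + strand), had 0.80 TPM in mouse 2, from 26 counts, and 0.55 TPM in mouse 1, from 33 counts. TPM is higher in mouse 2, yet the log2 ratio of scaled counts was -0.20, with an interval from -1.01 to 0.58, while the log2 ratio of TPM plus 0.1 was 0.47. The deposited effective length of Amhr2 was 983 bases in mouse 2 and 1461 bases in mouse 1, and TPM divides by it. This length follows the transcripts to which the few reads were assigned: Amhr2-203 held 64.4% of Amhr2 TPM in mouse 2 and 15.9% in mouse 1. Amhr2-201 held 35.6% in mouse 2 and 48.0% in mouse 1, and Amhr2-204 held 0% in mouse 2 and 30.1% in mouse 1. No direction between the mice can be read for Amhr2.

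The ligand Amh had 0.33 TPM in mouse 2, from 17 counts, and 0.36 TPM in mouse 1, from 23 counts. AMHR2 signals with type I receptors and SMAD proteins that it shares with bone morphogenetic proteins, and 7 of the 8 genes in that list were at 1 TPM or more in both mice. Bmpr2, another type II receptor, had 20.9 TPM in mouse 2, against 19.4 TPM in mouse 1. The type I receptor Bmpr1a had 20.4 TPM in mouse 2 and 19.4 TPM in mouse 1, and Acvr1, also a type I receptor, had 11.7 TPM in mouse 2, against 9.45 TPM in mouse 1. The signal transducers Smad5 and Smad9 averaged 15.7 ± 1.97 and 15.1 ± 1.34 TPM. Amhr2 lay below all of these genes except Bmpr1b, a type I receptor with a mean of 0.21 TPM. Beyond counting noise, 1 gene of this list (Acvr1, log2 ratio 0.25) was higher in mouse 2 and 2 (Smad9 at -0.36 and Smad6 at -0.35) were lower, with a median log2 ratio of 0.01, where 21.3% of all genes tested passed.

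The 250 bases before the RefSeq start site (GRCm38.p6) were searched for the letters of the GATA motif (AGATAA, and its variants with T as first letter, G as last letter, or both) and of the NR5A motif (CAAGGTCA, and the variant with C as sixth letter), on both strands. RefSeq windows were given for 7 of the 10 genes, and for 5 of them (Lhcgr, Fshr, Amhr2, Inhba and Inhbb) the RefSeq start lay within 50 bases of the GENCODE start. Amhr2 and Inhbb held GATA letters, which are found in 26.5% of all 32851 windows, and Amhr2 held NR5A letters, found in 3.28%. The Amhr2 window is shown because it is the one of the 5 that holds both, and both factors were measured in these libraries (chr15:102445117-102445366, + strand; the NR5A match and, on the reverse strand, the GATA match in capitals). A match is a description of the letters and shows no binding.
Amhr2 upstream: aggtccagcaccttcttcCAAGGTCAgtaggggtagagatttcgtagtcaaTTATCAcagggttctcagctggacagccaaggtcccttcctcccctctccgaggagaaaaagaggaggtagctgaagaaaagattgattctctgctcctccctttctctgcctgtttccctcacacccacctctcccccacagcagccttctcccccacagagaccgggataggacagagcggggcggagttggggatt

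**Figure D2:**
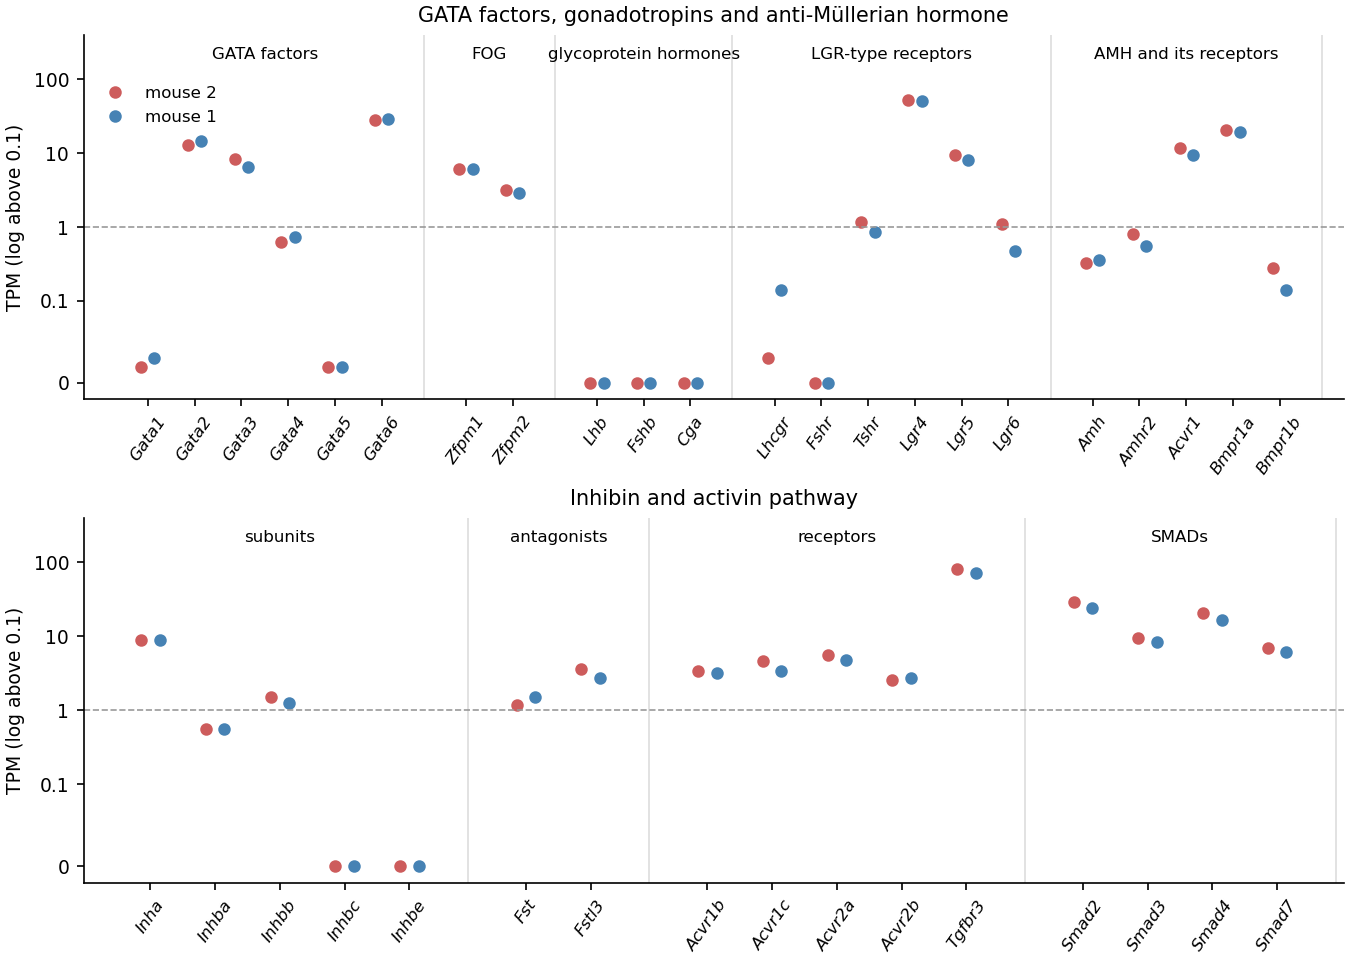
Level in TPM (log axis above 0.1 TPM, linear below) of the GATA, gonadotropin and anti-Müllerian hormone genes with their relatives (top) and of the inhibin and activin pathway (bottom), in mouse 2 and mouse 1. The dashed line marks 1 TPM. Gata6 leads the GATA factors, Lhcgr and Fshr lie far below Lgr4 and Lgr5, and Inha leads the inhibin and activin subunits.

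Wt1 (chromosome 2, 105126529 to 105173616, + strand) had 0.67 TPM in mouse 2, from 50 counts, and 0.91 TPM in mouse 1, from 76 counts. The log2 ratio of mouse 2 over mouse 1 was -0.45, with an interval from -1.01 to 0.06. In the gene tables this difference did not pass the test for more than counting noise (exact binomial test, two-sided, Benjamini-Hochberg adjusted p = 0.210 over 17666 genes). In the second quantification, with 65 counts in mouse 2 and 108 counts in mouse 1, Wt1 passed the same test and was lower in mouse 2.

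Transcripts with the 9 bases shown above held 52.9% of Wt1 TPM in mouse 2 and 49.5% in mouse 1. Transcripts without them held 38.3% in mouse 2 and 26.6% in mouse 1, and the rest lay on 2 retained-intron transcripts that hold neither junction. In counts, the form with the 9 bases had 33.7 in mouse 2 and 42.6 in mouse 1, and the form without them had 11.1 in mouse 2 and 23.0 in mouse 1. The second quantification gave the form with the 9 bases 60.0% in mouse 2 and 34.3% in mouse 1, and the form without them 10.5% in mouse 2 and 34.3% in mouse 1. Both forms were thus assigned reads in both mice and by both methods, but their balance was not resolved at this depth.

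The leading Wt1 transcript was Wt1-205, which holds both the 9 bases and the 51-base exon, at 48.9% in mouse 2 and 28.2% in mouse 1. The next transcripts changed with the library: Wt1-204 held 38.3% in mouse 2 and 0% in mouse 1, while Wt1-202 held 0% in mouse 2 and 26.6% in mouse 1. The 2 share the splice form without the 9 bases and differ by the 51-base exon. They also differ in annotated length, at 1418 bases for Wt1-204 and 2441 bases for Wt1-202. Their shares thus do not measure the use of that exon alone. Wt1-209 held 2.39% in mouse 2 and 21.3% in mouse 1, and the retained-intron transcript Wt1-208 held 0% in mouse 2 and 19.7% in mouse 1. Transcripts with the 51-base exon held 51.3% in mouse 2 and 76.1% in mouse 1, against 40.8% in mouse 2 and 45.9% in mouse 1 in the second quantification.

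**Figure D3:**
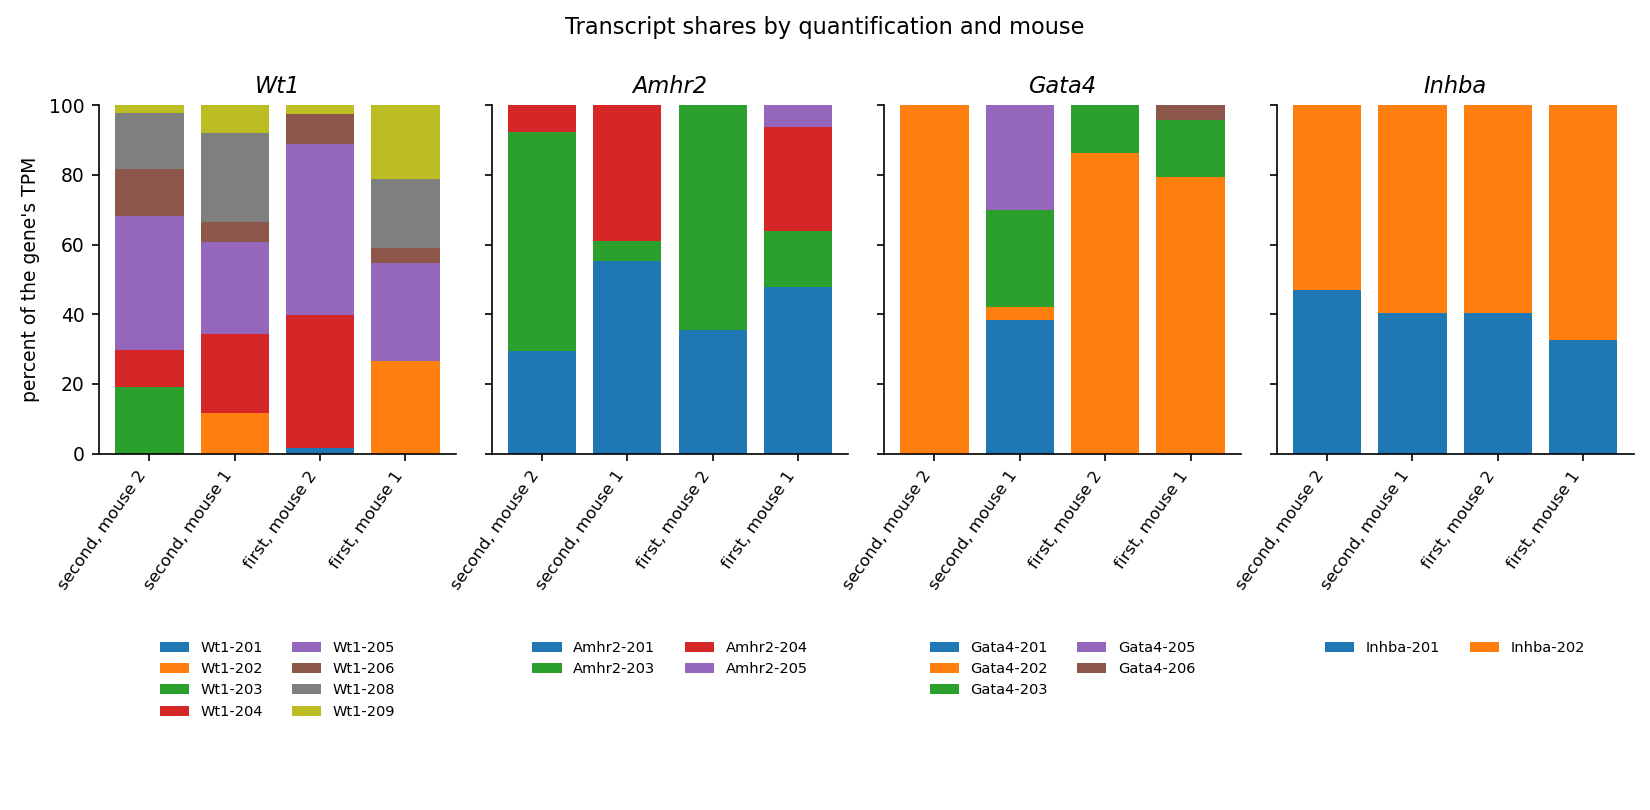
Share of each gene's TPM (percent, bars stacked to 100) assigned to each annotated transcript of Wt1, Amhr2, Gata4 and Inhba, by the second quantification and by the transcript tables that go with the gene tables (first), in mouse 2 and mouse 1. By share of TPM, the leading Inhba transcript is Inhba-202 in all 4 bars, at 53.1% to 67.3%, whereas the leading transcript of Amhr2 and of Gata4 changes between libraries or quantifications. In counts, which are not drawn, the longer Inhba-201 led Inhba.

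The other multi-transcript genes differed in how firmly their forms were assigned. Gata6-201 held 76.9% of Gata6 TPM in mouse 2 and 68.8% in mouse 1, and led in the second quantification too, at 65.2% in mouse 2 and 52.5% in mouse 1. Retained-intron transcripts held 16.8% of Gata6 TPM in mouse 2 and 16.0% in mouse 1. Gata4-202 held 86.2% of Gata4 TPM in mouse 2 and 79.3% in mouse 1 by the first method, but nearly all in mouse 2 and 3.63% in mouse 1 by the second. The remainder in the first method lay mainly on Gata4-203, at 13.8% in mouse 2 and 16.5% in mouse 1. Inhba-202 held 59.5% of Inhba TPM in mouse 2 and 67.3% in mouse 1, with Inhba-201 at 40.5% in mouse 2 and 32.7% in mouse 1. In counts, which are not per length, Inhba-201 led in both mice. It had 45.7 counts against 15.3 for Inhba-202 in mouse 2, and 45.6 against 21.4 in mouse 1. Their annotated lengths are 6390 bases for Inhba-201 and 1529 bases for Inhba-202. Fshr, Foxl2, Inha and Inhbb, 4 of the 10 genes, have a single annotated transcript.

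Foxl2, a forkhead factor of ovarian granulosa cells (chromosome 9, 98955288 to 98958543, + strand), had 0.32 TPM in mouse 2, from 33 counts, and 0.86 TPM in mouse 1, from 110 counts. Mouse 1 was the higher of the pair, and the exact Poisson intervals of the counts, from 22.7 to 46.3 in mouse 2 and from 90.4 to 132.6 in mouse 1, do not overlap. The log2 ratio of mouse 2 over mouse 1 was -1.55, with a counting interval from -2.21 to -1.03, a level 2.93-fold higher in mouse 1. The second quantification, with 39 counts in mouse 2 and 136 counts in mouse 1, gave 0.300 TPM in mouse 2 and 0.852 TPM in mouse 1. Foxl2 has a single annotated transcript, and the deposited posterior SD of its count was 0 in both libraries, as for all 10 genes.

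Of the 10 genes, 8 averaged 10 counts or more, and among them Foxl2 was the one gene at least 2-fold lower in mouse 2, against a background of 1.81% of the 17666 genes tested. No gene of the 8 was at least 2-fold higher in mouse 2, where the background was 1.15%. Foxl2 was also the one gene of the 8 that differed by more than counting noise (same exact binomial test, adjusted p = 5.02e-08), whereas 21.3% of all genes tested did. This test compares these libraries, not conditions, and with 1 gene in 8 the share is near that background. The median log2 ratio of the 8 genes was -0.18, with 7 below 0 and 1 above (Inhbb, at 0.13). It stands beside a median of -0.00 over all genes tested, where 8873 were below 0. Of the 7 below 0, Inhba, at -0.00, moved to above 0 under total count and median-of-ratios scaling.

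**Figure D4:**
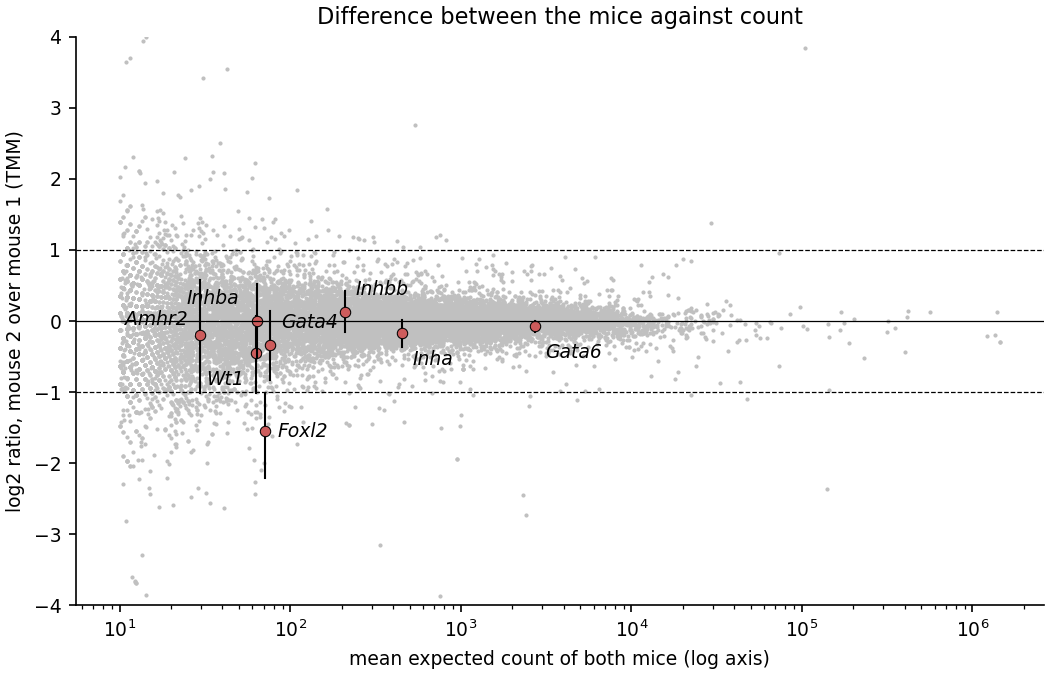
Log2 ratio of mouse 2 over mouse 1 (TMM-scaled counts) against the mean expected count of both mice (log axis), for every gene averaging 10 counts or more (grey; the few beyond the axis limits are not drawn) and for 8 of the 10 genes (red, with 95% counting intervals as bars). Dashed lines mark 2-fold. Foxl2 lies below the lower line, and the other 7 lie between the lines.

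Foxl2 overlaps the antisense gene Foxl2os by 12 bases. Foxl2os had 11 counts in mouse 2 and 23 counts in mouse 1, with a log2 ratio of -0.82. The kit marks strand, but whether the counting used it is not stated, so reads of the overlap cannot be assigned to either gene with certainty. The same holds for Gata6, which overlaps the antisense gene 1010001N08Rik by 504 bases (14.0 TPM in mouse 2 and 13.6 TPM in mouse 1). Inhba overlaps Gm48444 and B230303A05Rik, both on the other strand, which had at most 2 counts in a library, and Wt1os lies 18 bases from Wt1, with 3 counts in mouse 2 and 4 counts in mouse 1.

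Genes of other cell types were measured beside Foxl2. Of 10 further genes of gonadal somatic cells, 1 was at 1 TPM or more in both mice in the gene tables. This was Insl3, a Leydig and theca cell hormone, with 2.65 TPM in mouse 2, against 1.33 TPM in mouse 1. The second quantification gave Insl3 1.77 TPM in mouse 2 and 0.384 TPM in mouse 1, which is below 1 TPM in mouse 1. The summed level of the list was 6.28 TPM in mouse 2 and 4.46 TPM in mouse 1, or 3.63 TPM in mouse 2 and 3.13 TPM in mouse 1 without Insl3. Other genes of the list were detected below 1 TPM in both mice. Sox9 had 67 counts in mouse 2 and 70 in mouse 1, Sox8 had 43 and 36, and Nr5a2 had 41 and 68. In the same order, Cyp17a1 had 26 and 28 counts, Hsd17b1 had 24 and 28, and Hsd17b3 had 19 and 14. Dmrt1, a Sertoli cell factor, was at 0 counts in both libraries. Cyp19a1, the aromatase of granulosa cells, had 0 counts in mouse 2 and 1 count in mouse 1, and Esr2, an oestrogen receptor of granulosa cells, had 3 counts in mouse 2 and 16 counts in mouse 1. In the gene tables Dmrt1, Cyp19a1 and Esr2 did not reach the count minimum. The second quantification placed 13.5 counts on Esr2 in mouse 2 and 27.8 in mouse 1. On Cyp19a1 it placed 4.00 counts in mouse 2 and 10.1 in mouse 1. The amounts of both genes thus depend on the quantification. In counts the list summed to 268.5 in mouse 2 and 289.3 in mouse 1. Of its 7 tested genes, 5 had a log2 ratio above 0 and 2 below, with a median of 0.07. None of the 7 passed the test for more than counting noise, where 21.3% of all genes tested did. A count of 0 in 7 thus says little about this list.

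Of 11 oocyte and germ cell genes, 4 (the zona pellucida genes Zp1 and Zp2, Figla and Nlrp5) were at 0 counts in both libraries, although the second quantification placed 7.05 counts on Nlrp5 in mouse 2 and 5.05 counts in mouse 1. The list summed to 2.27 TPM in mouse 2 and 2.64 TPM in mouse 1, and 1 gene, Oosp1, was at 1 TPM or more in both mice. Below that level, Ddx4 had 25 counts in mouse 2 and 23 in mouse 1, Gdf9 had 13 and 23, and Sycp3 had 14 and 16. Bmp15, Dazl and Zp3 had at most 9 counts in a library. All 6 mesothelium genes, which mark the lining of the abdominal cavity and its organs, were detected. Of these, 5 had a log2 ratio below 0, as did 8873 of the 17666 genes tested. The median of the mesothelium list was -0.58, and it summed to 5.05 TPM in mouse 2 and 5.87 TPM in mouse 1. Upk1b had 16 counts in mouse 2 and 41 counts in mouse 1, and was lower in mouse 2 with a log2 ratio of -1.13 (same binomial test, adjusted p = 0.0195). Upk3b had 176 counts in mouse 2 and 276 counts in mouse 1, and was also lower in mouse 2, with a log2 ratio of -0.51 (adjusted p = 0.00182). These 2 of 6 genes passed the test for more than counting noise, beside 21.3% of all genes tested, so the count says little about this list. The 5 genes below 0 include Msln at -0.04, whose TPM was higher in mouse 2. These 5 of 6 mesothelium genes lay on the same side of 0 as Foxl2, and as Wt1, which mesothelium also expresses. The 4 adrenal medulla markers were lower in mouse 2 as well and beyond counting noise, with log2 ratios of -0.51 for Pnmt, -0.27 for Chga, -0.19 for Dbh and -0.11 for Th. Of the 6 adrenal cortex markers, 5 were also below 0. Beyond counting noise, 4 of the 6 were lower in mouse 2 by scaled counts (Cyp11b1 at -0.16, Cyp11a1 at -0.13, Cyp21a1 at -0.09 and Mc2r at -0.08). Star was higher, at 0.06. By TPM, however, these 4 lower cortex genes and Th were higher in mouse 2. Their log2 ratios of TPM plus 0.1 ran from 0.02 for Cyp11b1 to 0.10 for Mc2r. The direction of these genes thus depends on the measure, whereas Pnmt, Chga and Dbh were lower in mouse 2 by TPM too. Over all genes tested 21.3% passed. The mesothelium, medulla and cortex genes are given beside Foxl2 and Wt1 as measured, and their part in these differences was not tested.

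**Figure D5:**
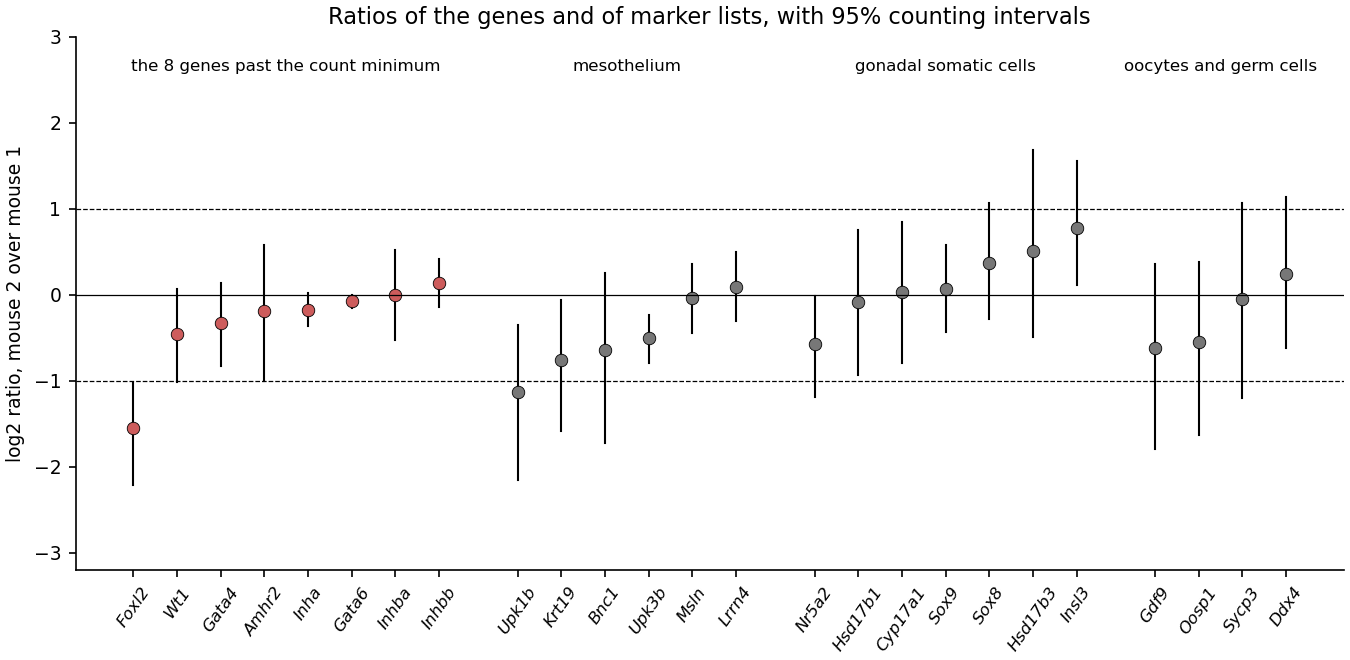
Log2 ratio of mouse 2 over mouse 1 for the 8 genes averaging 10 counts or more (red) and for the genes of the mesothelium, gonadal somatic cell and germ cell lists that reached it (grey), with 95% counting intervals as bars. Dashed lines mark 2-fold. Foxl2 and Upk1b are past 2-fold, and 5 of 6 mesothelium genes lie below 0.

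Inha, the inhibin alpha subunit (chromosome 1, 75507077 to 75510366, + strand), had 8.98 TPM in mouse 2, from 406 counts, and 8.98 TPM in mouse 1, from 503 counts. Its mean was higher than that of 70.5% of nuclear protein-coding genes. The log2 ratio of scaled counts was -0.17, with an interval from -0.37 to 0.02. The neighbouring gene Obsl1 begins 624 bases away on the opposite strand and had 25.5 TPM in mouse 2 and 24.0 TPM in mouse 1, and it does not overlap Inha.

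Inhbb, the beta B subunit (chromosome 1, 119415465 to 119422248, - strand), had 1.53 TPM in mouse 2 and 1.24 TPM in mouse 1, from 209 counts in mouse 2 and 209 counts in mouse 1. The mean was 1.39 ± 0.205 TPM, and the log2 ratio was 0.13 with an interval from -0.15 to 0.42. Inhba, the beta A subunit (chromosome 13, 16011851 to 16031621, + strand), had 0.55 TPM in mouse 2, from 61 counts, and 0.55 TPM in mouse 1, from 67 counts. Its log2 ratio was -0.00, with an interval from -0.53 to 0.52. None of the 3 inhibin subunit genes passed the test for more than counting noise (same exact binomial test, adjusted p = 0.206 for Inha, 0.577 for Inhbb and 1 for Inhba), where 21.3% of all genes tested did, so a count of 0 in 3 says little about these genes.

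Inhbb lay above Inhba in both mice and in both quantifications, and Inha lay above both beta subunits together. The ratio of Inha TPM to the summed Inhba and Inhbb TPM was 4.32 in mouse 2 and 5.02 in mouse 1, with a mean of 4.67 ± 0.495. In counts, which are not per length, it was 1.50 in mouse 2 and 1.82 in mouse 1, since the beta subunit transcripts are longer. The remaining beta subunits Inhbc and Inhbe, known from liver, had 0 counts in both libraries in the gene tables, while the second quantification placed 20.0 counts on Inhbe in mouse 2 and 36.7 counts in mouse 1.

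Receptors and signal transducers of the activin and inhibin pathway were present at higher levels than the beta subunits. Of 13 genes in the list, 11 were at 1 TPM or more in both mice, and the 2 that were not are Inhbc and Inhbe. Tgfbr3, betaglycan, the co-receptor through which inhibin blocks activin receptors, had 80.6 TPM in mouse 2, against 72.6 TPM in mouse 1. The activin type II receptor Acvr2a had 5.65 TPM in mouse 2 and 4.78 TPM in mouse 1, and Acvr2b had 2.53 TPM in mouse 2, against 2.77 TPM in mouse 1. The type I receptor Acvr1b had 3.35 TPM in mouse 2, against 3.24 TPM in mouse 1. The signal transducers Smad2, Smad4 and Smad3 averaged 26.6 ± 3.15, 18.8 ± 3.08 and 9.02 ± 0.863 TPM.

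The activin-binding protein follistatin, Fst, had 1.17 TPM in mouse 2, from 62 counts, and 1.51 TPM in mouse 1, from 103 counts. Fst was lower in mouse 2, with a log2 ratio of -0.58 (same binomial test, adjusted p = 0.0475). The type I receptor Acvr1c was higher in mouse 2, at 4.67 TPM in mouse 2, against 3.35 TPM in mouse 1, with a log2 ratio of 0.45 (adjusted p = 1.99e-08). Smad4 was higher in mouse 2, with a log2 ratio of 0.15 (adjusted p = 0.00459). These 3 of the 11 pathway genes that reached the count minimum differed beyond counting noise, a share near the 21.3% of all genes tested, none by as much as 2-fold, and the median log2 ratio of the list was 0.01.

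The transcription factors that the adrenal cortex and gonads share were led by Nr5a1, the factor with which GATA proteins act, at 274 TPM in mouse 2, against 232 TPM in mouse 1. Nr2f2, an orphan nuclear receptor, averaged 33.9 ± 0.438 TPM, and Cited2, a coactivator that works with WT1, 22.6 ± 1.86 TPM. Of the 10 factors in this list, 6 were at 1 TPM or more in both mice. Of the 8 that reached the count minimum, Nr5a1 was higher in mouse 2 beyond counting noise, with a log2 ratio of 0.08, and Cited2 was lower, with a log2 ratio of -0.36, while the median was 0.02. A count of 2 in 8 is near the 21.3% of all genes tested. Lhx9, a factor of the early gonad, had 0 counts in both libraries, and Emx2, another such factor, had 3 counts in each. Gata6 lay between Cited2 and Nr2f2, and Gata4 and Wt1 lay below all 6.

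The second quantification of the same reads gave similar levels for the abundant genes. Gata6 had 29.3 TPM in mouse 2 and 33.4 TPM in mouse 1, and Inha had 8.56 TPM in mouse 2 and 8.78 TPM in mouse 1. Inhbb had 1.37 TPM in mouse 2 and 1.12 TPM in mouse 1. None of these 3 genes, the ones at a mean of at least 1 TPM, was 2-fold apart between the quantifications, against a background of 5.62% of 13694 genes. Among the less abundant genes, Gata4 had 0.511 TPM in mouse 2 and 0.959 TPM in mouse 1, and Wt1 had 0.793 TPM in mouse 2 and 1.19 TPM in mouse 1. Amhr2 had 0.783 TPM in mouse 2 and 0.438 TPM in mouse 1, and Inhba had 0.483 TPM in mouse 2 and 0.523 TPM in mouse 1.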

How the data were processed

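Adrenal gland total RNA was measured in 2 libraries of 1 group. Per the file headers, the deposited gene and transcript tables hold expected counts, TPM and FPKM, with the percent of its gene for each transcript and a posterior SD of each count. A second deposited transcript table holds estimated counts and TPM and was summed to genes. The deposited text files name mm10 and GENCODE M21. The aligner and both quantifiers were not given in the sources used here. The reference is of another strain than CAST. Rows that name no gene held 0.527% of the counts in mouse 2 and 0.503% in mouse 1, mostly ERCC spike-in RNA, and stayed out of library sizes and tests.

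Ratios of mouse 2 over mouse 1 used TMM scaling in edgeR 4.0.16 (R 4.3.3) and a prior count of 2, for 17666 genes averaging 10 counts or more. For the exact two-sided binomial test, expected counts were rounded, and p-values were adjusted by Benjamini-Hochberg at 0.05. With 1 group, no test between groups was made. Quantifications were compared on TPM plus 0.1. DESeq2 1.42.0 gave median-of-ratios factors, and the rest ran in Python 3.11.15 with scipy 1.17.1, pandas 2.3.3, numpy 2.4.6 and matplotlib 3.10.9. The 10 genes and 11 lists (84 genes, all found) were chosen with earlier results of these data known. Named were all 10 genes, the 4 genes of highest mean TPM of each list and those 2-fold apart, transcripts at 10% or more of their gene, and genes within 5 kb. Of these, 1 item is not reported here. Any other gene was picked with its values in view. Upstream sequences are from RefSeq.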

Additional observations from a re-analysis of the deposited data

How the results depend on the processing

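The count of the 10 genes at least 2-fold apart between the mice, 1 (Foxl2), was the same under ERCC, total count and median-of-ratios scaling, a prior count of 0.5, the second quantification and nuclear protein-coding genes alone. With no count filter it was 2 (Foxl2 and Lhcgr), and at a minimum mean of 100 counts it was 0, since Foxl2 is then not tested. Over all genes the count of 523 became 2655 with no filter, 65 at a minimum mean of 100 counts and 253 among nuclear protein-coding genes alone. The count beyond counting noise was 1, and 2 in the second quantification (Foxl2 and Wt1); the cause was not tested. The 3 genes at 1 TPM or more became 7 at a threshold of 0.5 TPM, 8 at 0.1 TPM and 7 after rescaling to nuclear protein-coding genes, and were 3 in each mouse alone. The Inha to beta subunit ratio of 4.67 was 1.66 in counts, and 4.32 to 5.02 in single mice. The Gata6 to Gata4 ratio of 42.0 was 46.0 in the second quantification and 35.9 in counts, and 39.2 to 44.8 in single mice. Between quantifications, the count of 770 genes became 262 at a mean of at least 10 TPM and 2638 at 0.1 TPM, and was 782 to 787 in single mice, while it was 0 of those of the 10 genes that reached each minimum (3 at 1 TPM). Of the 8 log2 ratios, none left its counting interval under the scalings, the prior count or the second quantification. Of 9 leading transcript shares, 3 were lower in the second quantification by more than the SD between mice. No paired analysis was possible because there is 1 group. Depth limits statements on Lhcgr and Fshr and on transcript shares of Wt1, Amhr2, Gata4 and Inhba, each with about 100 counts or fewer per library.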
